A study of Mus musculus with 4 samples.

Results

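Il24, Tslp, Lif, Csf1 and Cxcl14 are 5 genes for proteins that epidermal keratinocytes can secrete and that act on leukocytes or on neighbouring epithelium. They were chosen by name, with earlier results of these arrays known, as 5 of the 12393 genes that the array annotation names singly, and every probe set annotated to 1 of them alone was used, 10 of 22626 in all. Each of the 5 genes had at least 1 probe set whose highest value was at or above 20.04 intensity units, the median of all values, and such genes are called measured here (7461 genes in all). Of the 10 probe sets, 8 reached that level, and the other 2, of Lif and of Csf1, are given below with their dim values.

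Primary keratinocytes from tail skin of C57BL/6 mice were cultured in serum-free medium on collagen, and total RNA was read on the Affymetrix Mouse Expression Array 430A. All 4 cultures carried a floxed Prdm1 gene, which encodes the transcriptional repressor Blimp-1 and can be cut by Cre recombinase. CKO cells also carried CreER, a Cre recombinase held inactive until 4-hydroxytamoxifen (4OHT) binds it, and control cells did not. The 4 groups were CKO cells with 4OHT (CKO 4OHT), CKO cells with the solvent ethanol (CKO EtOH), control cells with 4OHT (control 4OHT) and control cells with ethanol (control EtOH), with the agent present from day 1 to day 3 and collection on day 5. Each group had 1 array. CKO and control cells came from different mice, while the sources used here do not give the promoter that drives CreER, the mice's ages or the number of mice behind a culture. With 1 array a group no difference could be tested, there is no error to set beside a value, and all values below describe these 4 arrays.

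The members have different roles in skin. Il24 is a cytokine of the IL-10 family that acts on epithelial cells through receptors built with the Il20rb chain and signals through STAT3. Tslp is an epithelial cytokine that acts on dendritic cells and lymphocytes through Crlf2 paired with Il7r, and it is known for its part in allergic skin inflammation. Lif belongs to the IL-6 family and binds Lifr together with the shared chain Il6st (gp130), again upstream of STAT3. Csf1 is the growth factor of macrophages and acts through Csf1r. Cxcl14 is a chemokine that healthy epidermis makes constitutively and that attracts monocytes and dendritic cell precursors.

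Start regions from RefSeq (GRCm38.p6, 250 bases before to 50 after the annotated start) are shown for 3 of the 5 genes, Lif, Cxcl14 and Csf1. These 3 genes differed in direction on the CKO 4OHT array. Start regions of Il24 and Tslp are not reported here. The regions shown lie at chr11:4257318-4257617 on the plus strand for Lif, chr13:56296502-56296801 on the minus strand for Cxcl14 and chr3:107760420-107760719 on the minus strand for Csf1. Capitals mark matches, on either strand, to the AP-1 motif TGANTCA, the STAT motif TTCNNNGAA, the Blimp-1 core GAAAGT or the TATA box TATAAA.
Lif: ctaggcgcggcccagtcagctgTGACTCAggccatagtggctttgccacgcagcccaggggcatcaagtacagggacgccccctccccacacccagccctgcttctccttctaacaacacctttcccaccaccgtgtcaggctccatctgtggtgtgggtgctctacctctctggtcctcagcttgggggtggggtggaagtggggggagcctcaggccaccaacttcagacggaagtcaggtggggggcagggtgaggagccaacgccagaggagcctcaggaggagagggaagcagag
Cxcl14: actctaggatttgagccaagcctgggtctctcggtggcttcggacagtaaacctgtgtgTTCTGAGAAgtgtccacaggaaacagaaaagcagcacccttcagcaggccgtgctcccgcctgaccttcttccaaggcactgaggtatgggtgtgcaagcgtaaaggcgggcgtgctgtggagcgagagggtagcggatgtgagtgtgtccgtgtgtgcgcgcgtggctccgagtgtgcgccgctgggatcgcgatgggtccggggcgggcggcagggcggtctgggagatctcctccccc
Csf1: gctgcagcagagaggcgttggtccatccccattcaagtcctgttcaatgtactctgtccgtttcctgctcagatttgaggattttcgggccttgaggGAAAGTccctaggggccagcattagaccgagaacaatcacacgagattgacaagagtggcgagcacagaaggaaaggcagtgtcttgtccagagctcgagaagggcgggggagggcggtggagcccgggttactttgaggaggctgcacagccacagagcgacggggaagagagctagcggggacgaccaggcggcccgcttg

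The Lif region held 1 AP-1 match, between 228 and 222 bases before the start, and 7.81% of all 32851 regions of the same length held such a match. The Cxcl14 region held 1 STAT match, between 191 and 183 bases before the start, a motif found in 8.3% of regions. The Csf1 region held 1 match to the Blimp-1 core, between 153 and 148 bases before the start, a motif found in 14.3% of regions. None of the 3 regions held a TATA box match (13.6% of regions did). The NF-kB motif (GGG and CC with any 5 bases between them), whose matches are left in lower case, occurred in 50.8% of regions, in the Lif and Csf1 regions among them and not in that of Cxcl14. In the Csf1 region, 2 of these matches overlapped the Blimp-1 core match, and in the Lif region 2 of them overlapped each other. A match is a stretch of letters and not a measured binding site.

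The arrays were alike as a whole, with medians between 19.95 and 20.22 intensity units and Pearson correlations of log2 values between 0.986 and 0.995 over all probe sets. Prdm1, the targeted gene, was at 6.43 in CKO 4OHT, 17.0 in CKO EtOH, 52.4 in control 4OHT and 20.7 in control EtOH. It was lowest in CKO 4OHT, where the value lay below the array's 25th percentile. CKO 4OHT differed by -1.40 log2 from CKO EtOH and by -3.03 from control 4OHT. With a pseudocount of 10 these differences were -0.72 and -1.93. Control 4OHT was itself 1.34 log2 above control EtOH, so the value of -3.03 holds that difference too. The labels do not say which part of the gene Cre removes, and a probe set outside that part would not read the deletion. Most keratinocyte markers were bright on all arrays. Of 11 with a probe set of their own, 10 were measured, and Krt14 was at 6437 in CKO 4OHT, 6624 in CKO EtOH, 6663 in control 4OHT and 6587 in control EtOH. Ivl, the marker not measured, was no higher than 10.1 on any array. Krt1, a marker of the suprabasal layers, was the 1 marker of this list past 2-fold in CKO 4OHT against either CKO EtOH or control 4OHT, at 21.8 in CKO 4OHT, 205 in CKO EtOH, 246 in control 4OHT and 136 in control EtOH. Markers of other cells were mostly dim. The leukocyte list, with 3 of 12 measured, had a summed intensity of 247 in CKO 4OHT, 311 in CKO EtOH, 332 in control 4OHT and 320 in control EtOH. Much of this sum was the macrophage marker Cd68, so the sum does not describe the list as a whole. Cd68 was at 98.2 in CKO 4OHT, 171 in CKO EtOH, 198 in control 4OHT and 178 in control EtOH (-1.01 log2 in CKO 4OHT against control 4OHT). Cd14, a marker of monocytes and macrophages, went the other way, at 32.8 in CKO 4OHT, 22.4 in CKO EtOH, 19.6 in control 4OHT and 26.4 in control EtOH, and the T cell marker Cd3e was at 23.4 in CKO 4OHT and no higher than 28.9 elsewhere. The pan-leukocyte marker Ptprc was no higher than 4.73 on any array. No mast cell or basophil marker and no endothelial marker was measured (0 of 7 each), and 1 of 9 fibroblast markers was, Dcn, at 22.6 in CKO 4OHT and at most 26.1 elsewhere. Melanocyte markers, with 4 of 6 measured, summed to 146 in CKO 4OHT against 119 in CKO EtOH, 129 in control 4OHT and 126 in control EtOH, with the enzyme gene Dct at 40.3 in CKO 4OHT and between 26.5 and 27.5 elsewhere. Tyrp1, another melanocyte marker, was at 20.4 in CKO 4OHT and 15.2 to 18.3 elsewhere by its probe set of highest mean. Its probe set 1415861_at read 23.3 in CKO 4OHT and 7.90 to 10.9 elsewhere, and 1415862_at was no higher than 10.1 on any array. Sox10, a transcription factor of melanocytes, was at 31.3 in CKO 4OHT, 27.7 in CKO EtOH, 32.6 in control 4OHT and 32.2 in control EtOH, and its probe set 1451689_a_at was lowest in CKO 4OHT, at 14.3 against 18.2 to 20.5. The part of these other cells in the results below was not tested. In cultures read as a whole, fewer cells of a type and less RNA per cell cannot be told apart.

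Il24 had the largest difference of the 5 genes. Its single probe set (1426181_a_at) read 920 in CKO 4OHT, 42.3 in CKO EtOH, 53.8 in control 4OHT and 53.9 in control EtOH. The CKO 4OHT array alone was high, and the other 3 arrays lay within 1.27-fold of each other. CKO 4OHT was 21.7-fold above CKO EtOH (4.44 on the log2 scale) and 17.1-fold above control 4OHT (4.10). Among all measured genes it ranked 1 from the top in the first of these comparisons and 4 in the second. Il24 was chosen with earlier results of these arrays known, so nothing is read from these ranks. The probe set stood at the 98.2th percentile of all probe sets on the CKO 4OHT array and between the 63.9th and 69.0th percentile on the other arrays, so Il24 was above the middle of the table in every culture.

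Lif was high on the same array. Probe set 1421207_at read 71.2 in CKO 4OHT, 25.2 in CKO EtOH, 24.9 in control 4OHT and 22.3 in control EtOH. The 3 lower arrays lay within 1.13-fold of each other, and CKO 4OHT was 2.83-fold above CKO EtOH (1.5 log2) and 2.86-fold above control 4OHT (1.51 log2). The second Lif probe set (1450160_at) did not share this. It read 7.34 in CKO 4OHT, 6.47 in CKO EtOH, 8.49 in control 4OHT and 6.87 in control EtOH, close to the 25th percentile of each array, 7.11 to 7.48, where the table does not show which values are above background. The higher Lif level therefore rests on 1 probe set, and with the mean log2 value of both probe sets the differences were 0.84 and 0.65, under 2-fold.

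Tslp was also highest in CKO 4OHT, with a smaller gap. Its single probe set (1450004_at) read 47.7 in CKO 4OHT, 19.9 in CKO EtOH, 17.7 in control 4OHT and 28.3 in control EtOH. CKO 4OHT was 2.40-fold above CKO EtOH (1.26 log2) and 2.69-fold above control 4OHT (1.43 log2), but 1.69-fold above control EtOH, the nearest array. The other 3 arrays spread more widely than for any other member (1.6-fold), counting the probe set of highest mean per gene. The values in CKO EtOH and control 4OHT lay under the median of the table, so folds against them are imprecise, and with a pseudocount of 10 the difference against CKO EtOH was 0.95 log2.

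Cxcl14 went the other way. Probe set 1418457_at read 92.4 in CKO 4OHT, 245 in CKO EtOH, 194 in control 4OHT and 187 in control EtOH, with the CKO 4OHT array alone low. CKO 4OHT was 2.65-fold below CKO EtOH (-1.41 log2) and 2.10-fold below control 4OHT (-1.07 log2). The second probe set, 1418456_a_at, read 60.7 in CKO 4OHT, 119 in CKO EtOH, 120 in control 4OHT and 110 in control EtOH. It showed the same direction at a slightly smaller size, -0.97 against CKO EtOH and -0.98 against control 4OHT, both just under 2-fold. With a pseudocount of 10 the first probe set gave -0.99 against control 4OHT, also just under. Cxcl14 is thus the member whose lower level in CKO 4OHT was read by 2 probe sets, each lowest on that array.

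Csf1 showed no such difference in any of its 4 probe sets. The probe set with the highest mean, 1460220_a_at, read 32.2 in CKO 4OHT, 35.5 in CKO EtOH, 34.1 in control 4OHT and 26.8 in control EtOH. The CKO 4OHT value lay inside the range of the other 3 arrays, at -0.14 log2 against CKO EtOH and -0.08 against control 4OHT. The next probe sets, 1425154_a_at and 1448914_a_at, read 26.3 and 24.5 in CKO 4OHT, 23.7 and 21.9 in CKO EtOH, 27.2 and 31.1 in control 4OHT, and 23.4 and 23.4 in control EtOH. The fourth, 1425155_x_at, whose suffix marks possible cross-hybridisation, was no higher than 7.55 on any array. Over the 4 probe sets the differences ran from -0.14 to 0.17 against CKO EtOH and from -0.34 to 0.21 against control 4OHT. In control cells all 4 were slightly higher with 4OHT than with ethanol, by 0.06 to 0.41 log2.

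**Figure D1:**
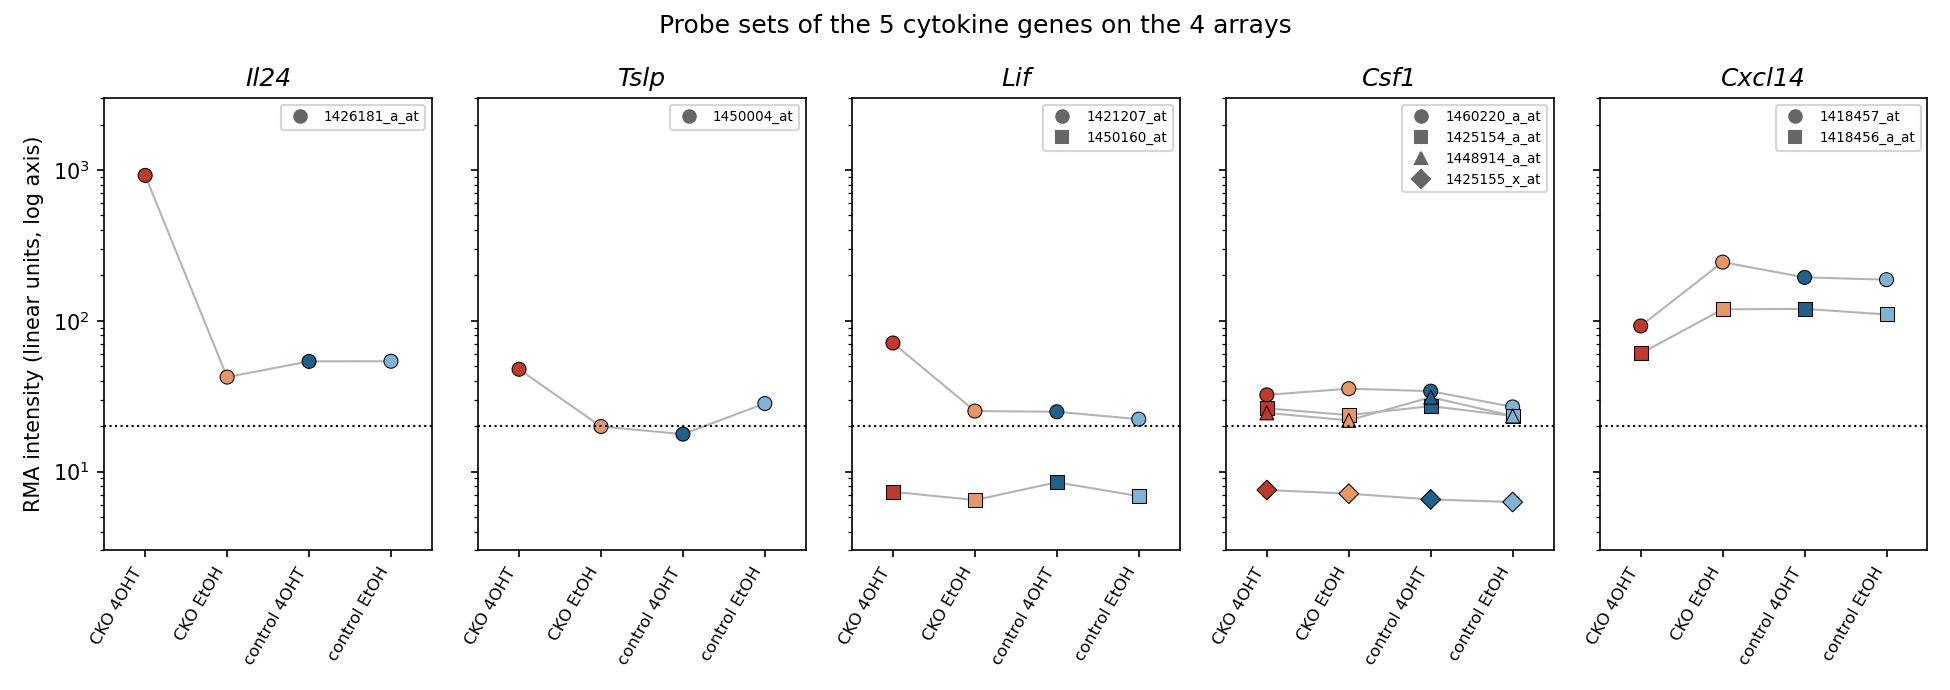
RMA intensity (linear units on a log axis) of every probe set of Il24, Tslp, Lif, Csf1 and Cxcl14 on the 4 arrays, 1 point per array, with a marker shape per probe set and the median of the table (20.04) as a dotted line. Il24 reaches 920 in CKO 4OHT against 42.3 to 53.9 elsewhere, Lif and Tslp are highest in CKO 4OHT by 1 probe set each, both Cxcl14 probe sets are lowest there, and the Csf1 probe sets stay level.

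Within CKO cells, 4OHT was set against its solvent. With a difference of at least 2-fold as the size threshold, 3 of the 5 members were higher in CKO 4OHT (Il24, Lif and Tslp) and 1 was lower (Cxcl14), where 1.78% of all measured genes were higher and 1.86% lower. Between the cultures that both received 4OHT, cells with CreER were set against cells lacking it. The same 3 members were higher and the same 1 lower, where 1.45% of measured genes were higher and 2.24% lower. Both comparisons use the CKO 4OHT array, and the members were chosen with these differences known, so nothing is read from these counts. In CKO 4OHT, 2 members (Il24 and Lif) lay at least 2-fold above every other array, as 0.751% of measured genes did, and Cxcl14 lay at least 2-fold below, as 1.09% did. Cxcl14 passed that limit narrowly, at 2.03-fold below the nearest array, while Tslp at 1.69-fold above the nearest did not reach it. On the control 4OHT array, 0 members stood apart in this way, where 0.281% of measured genes lay above and 0.0268% below every other array. CKO EtOH and control EtOH had 0 such members and 0% of measured genes in either direction.

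The remaining comparisons are between cultures that lacked CreER, 4OHT or both. Between control 4OHT and control EtOH no member differed by 2-fold, where 1.27% of measured genes were higher and 0.241% lower with the drug. Tslp differed most, at 17.7 in control 4OHT and 28.3 in control EtOH (-0.67 log2), the direction opposite to its difference in CKO cells. Csf1 differed by 0.35, Lif by 0.16, Cxcl14 by 0.05 and Il24 by less than 0.01 in size. Between CKO EtOH and control EtOH no member differed by 2-fold either, as against 0.0536% of measured genes higher and 0% lower. Here Csf1 was 0.40 and Cxcl14 0.39 log2 higher in CKO EtOH, and Tslp was 0.51 and Il24 0.35 log2 lower. The 1st and 99th percentiles of all measured genes were -0.56 and 0.50 in this comparison. The second Cxcl14 probe set gave 0.11 and the other Csf1 probe sets -0.10 to 0.18, so these small differences were not shared in size by the probe sets of a gene.

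The drug effect in CKO cells minus that in control cells puts the 4 arrays into 1 value per gene. It was 4.45 log2 for Il24, 1.93 for Tslp, 1.34 for Lif, -0.48 for Csf1 and -1.46 for Cxcl14, where 2.75% of measured genes were at least 1 and 2.9% at most -1. Tslp ranked above Lif on this scale and below it in each comparison of CKO 4OHT, its level in control cells being lower with 4OHT. The second Cxcl14 probe set gave -1.10 and the dim Lif probe set -0.12.

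**Figure D2:**
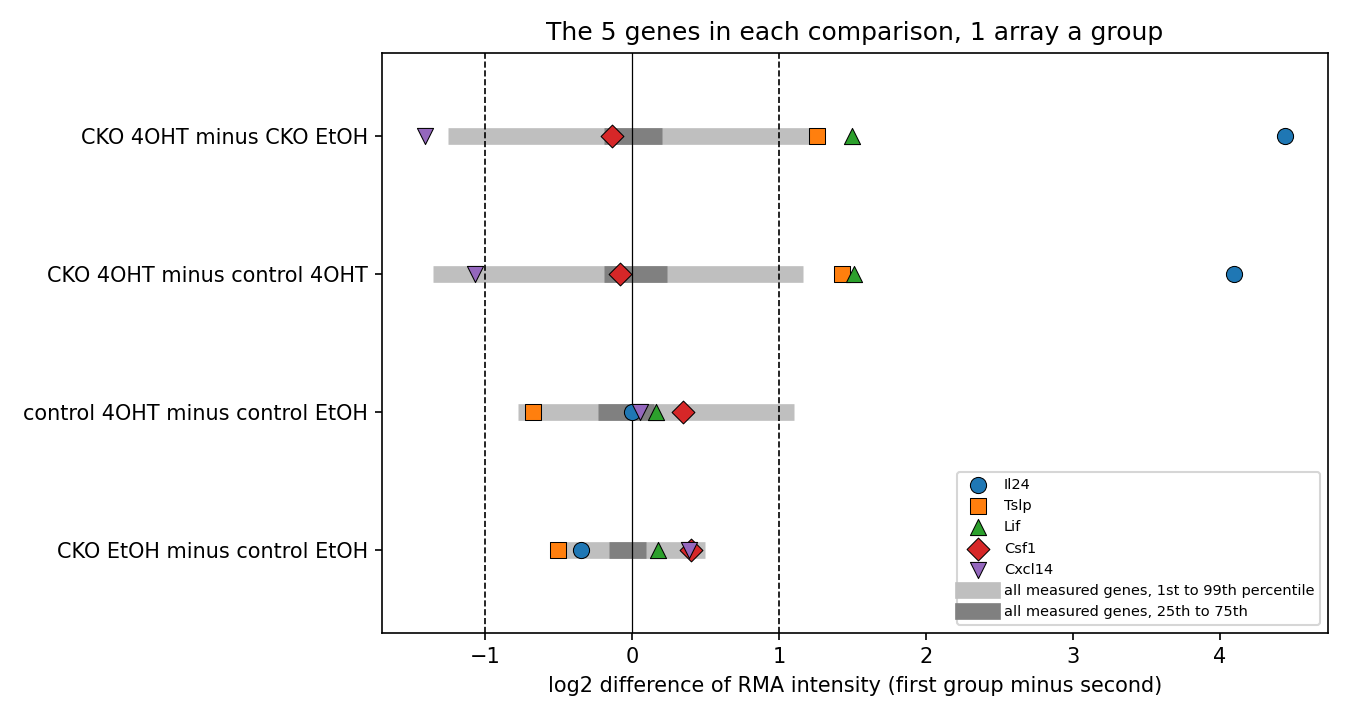
Log2 difference of RMA intensity (horizontal axis, first group minus second) of the 5 genes in each comparison, with grey bars for the 1st to 99th and the 25th to 75th percentile of 7461 measured genes and dashed lines at 2-fold. Il24 lies at 4.44 and 4.10 in the comparisons of CKO 4OHT, Lif and Tslp lie between 1.26 and 1.51, Cxcl14 at -1.41 and -1.07, and no gene passes 2-fold in the other comparisons.

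Receptors and related ligands were examined next, from lists of receptors, family members and signalling genes related to the 5 members. Not every listed gene is a partner of a member. For the IL-20 subfamily, 5 of 10 genes had a probe set of their own, and Il24 and Il10rb were measured. Il10rb is a chain shared by receptors of the IL-10 family and is not the Il20rb chain named above for Il24. It was at 114 in CKO 4OHT, 172 in CKO EtOH, 164 in control 4OHT and 153 in control EtOH. That is lowest in CKO 4OHT by less than 2-fold (-0.60 and -0.53 log2 against CKO EtOH and control 4OHT). Il20, a ligand of the same receptors and the neighbour of Il24 in the genome, was dim, at 10.2 in CKO 4OHT and 14.1 to 15.7 elsewhere. Il10, from the same gene cluster, was no higher than 6.59 on any array. Both lay under the level used here for measured genes, so their values say little about the rest of the cluster. Il19, Il22, Il20ra, Il20rb and Il22ra1 were not analysed here.

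For Tslp, 4 of 5 list genes had a probe set and 2 were measured. The receptor chain Crlf2 was at 56.3 in CKO 4OHT, 51.2 in CKO EtOH, 69.7 in control 4OHT and 80.4 in control EtOH, inside the range of the other arrays (0.14 and -0.31 log2). Il7r, the second chain of the receptor, was no higher than 5.78 by either probe set. In the list of colony stimulating factors, 3 of 10 genes with a probe set were measured and none passed 2-fold in any comparison. At most 2.9% of all measured genes did so in any comparison and direction. Kitl, the ligand of the receptor Kit, was at 98.6 in CKO 4OHT, 117 in CKO EtOH, 76.0 in control 4OHT and 116 in control EtOH. The Csf1 receptor gene Csf1r, a macrophage marker, was between 11.6 and 18.4 over its 3 probe sets and 4 arrays, under the median of the table.

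The LIF and IL-6 family list had 9 of 12 genes with a probe set, 6 of them measured. Lif was the 1 gene higher past 2-fold in both comparisons of CKO 4OHT, and 2 receptor genes, Il6st and Osmr, were lower. Of all measured genes, 1.78% were higher and 1.86% lower against CKO EtOH, and 1.45% and 2.24% against control 4OHT. Without Lif, the median of the list was -0.17 against CKO EtOH and -0.43 against control 4OHT, where the medians of all measured genes were 0.01 and 0.01. Il6st, the chain gp130 that Lif shares with IL-6 and oncostatin M, was at 123 in CKO 4OHT, 346 in CKO EtOH, 329 in control 4OHT and 299 in control EtOH by its brightest probe set (1452843_at), -1.5 and -1.42 log2. Its other probe sets were lower in CKO 4OHT than in both of these arrays too, by smaller amounts, -0.73 and -0.51 for 1460295_s_at and -0.46 and -0.23 for 1421239_at. The last of these did not put CKO 4OHT lowest, since control EtOH read 28.1 and CKO 4OHT 29.2.

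Osmr, the oncostatin M receptor chain that pairs with gp130, was at 48.0 in CKO 4OHT, 111 in CKO EtOH, 114 in control 4OHT and 122 in control EtOH by 1418674_at (-1.21 and -1.25 log2). The second Osmr probe set was lowest in CKO 4OHT as well, at 21.6 against 26.1 to 32.5. Lifr itself was no higher than 12.0 by any of its 3 probe sets. Il6 was at 3.92 in CKO 4OHT and no higher than 4.01 elsewhere. Clcf1, another ligand of the family, differed between its probe sets: the one of highest mean (1450262_at) read 25.4 in CKO 4OHT, 21.1 in CKO EtOH, 26.4 in control 4OHT and 17.4 in control EtOH, while 1437271_at read 25.4 in CKO 4OHT, 13.4 in CKO EtOH, 10.3 in control 4OHT and 12.8 in control EtOH. The third, 1437270_a_at, was dim and also highest in CKO 4OHT, at 7.82 against 3.97 to 5.43, and the mean log2 value of all 3 gave 0.72 against CKO EtOH and 0.73 against control 4OHT.

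Il24, Tslp and Lif receptors signal through JAK kinases and STAT factors, and 17 of 20 genes of that list with a probe set were measured. Socs3, a feedback inhibitor that STAT3 induces, was the 1 gene past 2-fold in the comparisons of CKO 4OHT. Of all measured genes, 1.86% were lower against CKO EtOH and 2.24% against control 4OHT. The call rests on an _x_at probe set, a suffix that marks possible cross-hybridisation. Socs3 was at 40.3 in CKO 4OHT, 82.4 in CKO EtOH, 81.0 in control 4OHT and 101 in control EtOH by 1455899_x_at (-1.03 and -1.01 log2). The other Socs3 probe sets were lowest in CKO 4OHT as well, at 32.7 against 58.3 to 61.4 and at 21.3 against 27.0 to 29.0, which is less than 2-fold. Stat3 was at 223 in CKO 4OHT, 378 in CKO EtOH, 402 in control 4OHT and 338 in control EtOH (-0.76 and -0.85 log2). Its second probe set, 1460700_at, read 115 in CKO 4OHT and 183 to 216 elsewhere, and the third, 1424272_at, read 17.7 in CKO 4OHT and 16.3 to 20.5 elsewhere. Jak1 was near level (-0.18 and -0.25), and Cish, an inhibitor induced by STAT5, was slightly higher (0.30 and 0.35). The median of the list was -0.09 against CKO EtOH and -0.25 against control 4OHT. So Il24 and, by 1 of its 2 probe sets, Lif read higher on the array where Il6st, Osmr, Socs3 and Stat3 read lower. Socs3 was at the edge of the 2-fold limit and Stat3 under it. With the mean log2 value of all probe sets of a gene, Il6st (-0.90 and -0.72), Osmr (-0.90 and -0.76) and Socs3 (-0.76 and -0.73) were lower by less than 2-fold too.

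**Figure D3:**
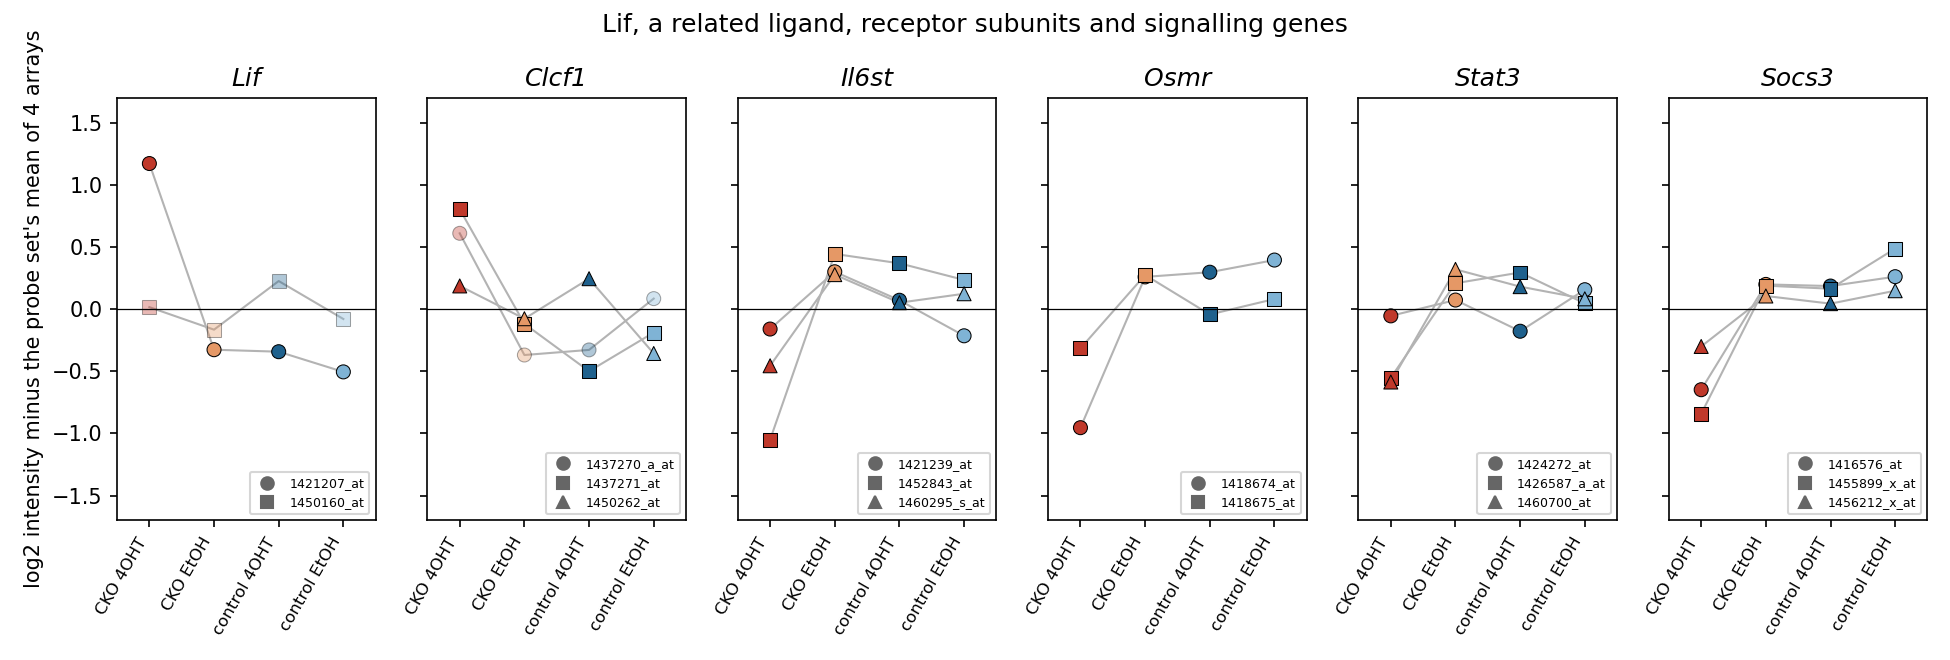
Log2 RMA intensity minus each probe set's own mean of the 4 arrays for Lif, Clcf1, Il6st, Osmr, Stat3 and Socs3, 1 point per array and a marker shape per probe set; pale markers are probe sets that never reach the median of the table. In CKO 4OHT, 1 of 2 Lif probe sets is high, both Osmr and all 3 Socs3 probe sets are lowest, and 2 of 3 Il6st and 2 of 3 Stat3 probe sets are lowest.

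Cxcl14 was the 1 gene past 2-fold among 6 measured genes of the chemokine list (20 with a probe set, neutrophil attractants not included). Of all measured genes, 1.86% were lower in CKO 4OHT against CKO EtOH and 2.24% against control 4OHT. Without Cxcl14 the list median was 0.13 against CKO EtOH and 0.05 against control 4OHT. Cxcl16, a chemokine made as a membrane protein, was at 581 in CKO 4OHT, 432 in CKO EtOH, 562 in control 4OHT and 390 in control EtOH. Ccl2, a monocyte attractant, was at 100.1 in CKO 4OHT, 91.4 in CKO EtOH, 75.5 in control 4OHT and 69.8 in control EtOH. Cxcl12 was at 21.6 in CKO 4OHT, 21.7 in CKO EtOH, 41.4 in control 4OHT and 20.9 in control EtOH, high on the control 4OHT array by 1 of its 2 probe sets. The dendritic cell attractant Ccl20 was no higher than 14.7 and the T cell attractant Ccl27a no higher than 7.62 on any array.

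The profiles of the members over the 4 arrays were set against those of all measured genes, as the Euclidean distance between log2 values after centring each gene on its own mean. Tslp and Lif were the closest pair of members, 0.73 log2 units apart, and Il24 and Cxcl14 the farthest, at 4.69. The 5 genes nearest to Il24 were Hmga2 (0.46), Fst (0.58), Cxcl2 (0.67), Cxcl1 (0.78) and Dusp6 (0.94). Hmga2 is a chromatin protein, Fst the activin antagonist follistatin, Cxcl1 and Cxcl2 neutrophil chemokines, and Dusp6 a phosphatase of ERK kinases. These distances are wide because few genes differ as much as Il24. Lif had Tnfaip2 (0.07), the cytokine Il1a (0.15), the uridine phosphorylase Upp1 (0.16), the scaffold protein Akap12 (0.17) and the transcription factor Etv4 (0.21) nearest to it. Il1a, an epidermal alarmin, was at 36.9 in CKO 4OHT, 13.2 in CKO EtOH, 14.5 in control 4OHT and 12.7 in control EtOH, with the single array high as for Lif.

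Tslp had the integrin chain Itga3 (0.08), the phosphate transporter Slc20a1 (0.12), the pyrimidine synthesis enzyme Cad (0.14), the protease Mmp3 (0.14) and the metalloprotease Adam12 (0.18) nearest. Itga3 was at 399 in CKO 4OHT, 162 in CKO EtOH, 155 in control 4OHT and 233 in control EtOH, with control EtOH second as for Tslp. Cxcl14 had the carbonyl reductase Cbr2 (0.13), the inflammatory caspase Casp4 (0.15), the Wnt receptor Fzd6 (0.16), the secreted protein Fstl1 (0.16) and the growth factor receptor Fgfr2 (0.18) nearest. Fzd6 was at 228 in CKO 4OHT, 591 in CKO EtOH, 491 in control 4OHT and 522 in control EtOH. Csf1 lay nearest to Ctage5 (0.04), Chrd (0.05), Pik3ca (0.05), Epn2 (0.06) and Ell (0.06), all of them nearly level. With 4 arrays many genes can have much the same profile, and closeness says nothing of shared control.

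**Figure D4:**
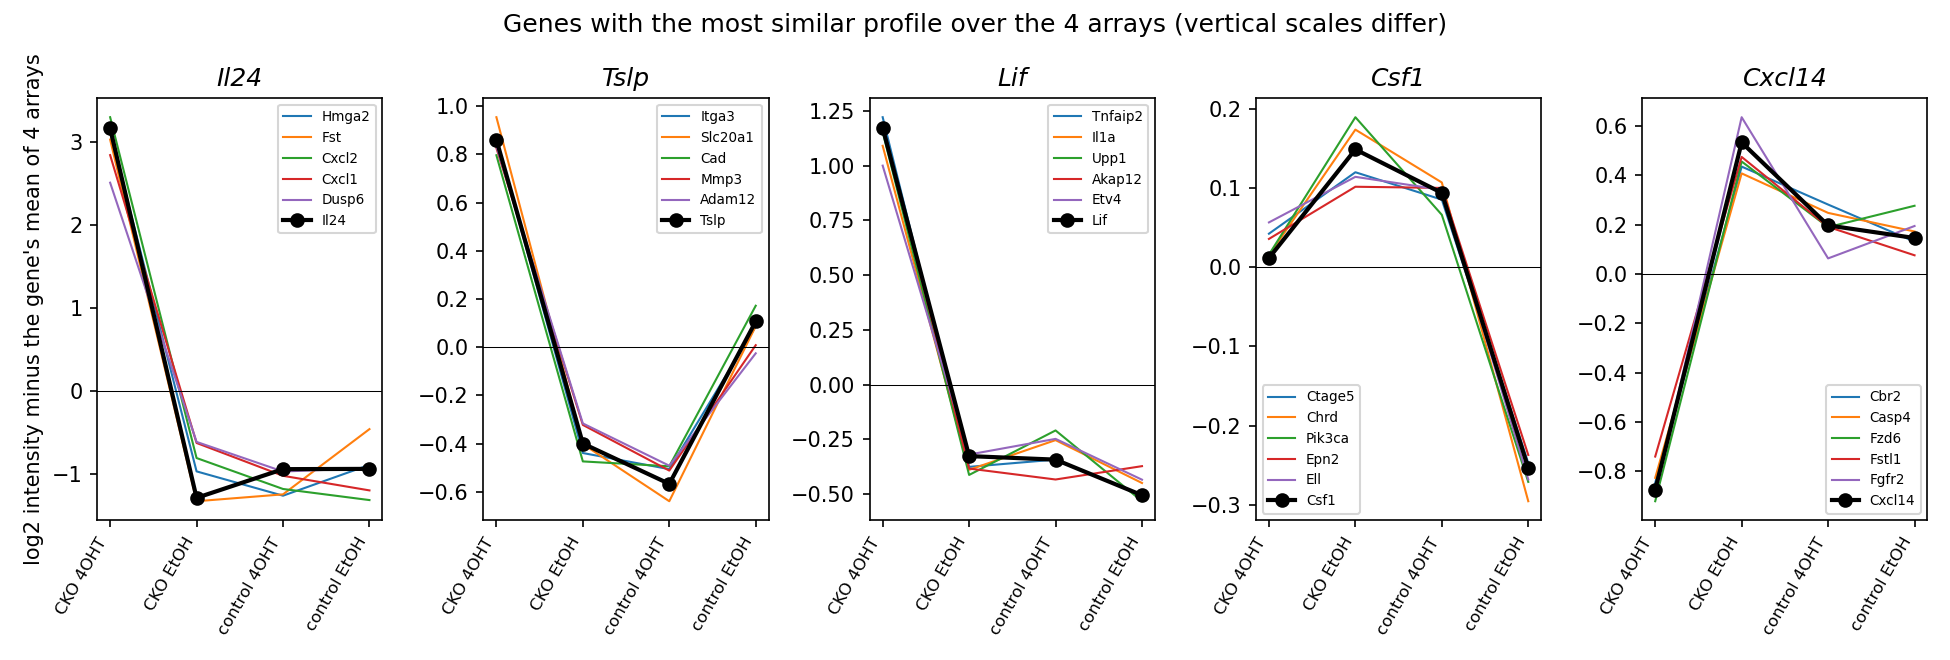
Log2 RMA intensity minus the gene's mean of the 4 arrays for each member (black, points) and its 5 nearest genes among 7461 (coloured lines), with a different vertical scale in each panel. Il24, Tslp and Lif peak in CKO 4OHT, Cxcl14 is lowest there, and Csf1 varies by less than 0.5 log2 units.

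The protein-coding genes beside the members in RefSeq order that had a probe set of their own did not pass 2-fold in CKO 4OHT against CKO EtOH or control 4OHT. Several had none, among them Osm and Hormad2, directly beside Lif, and Fcmr, directly beside Il24. No neighbour of Il24 was measured, and some beside other members, such as Gypc beside Tslp and Neurog1 beside Cxcl14, were not measured either. The values therefore say little about those neighbours. Of the 3 nearest genes on each side of each member, those with a probe set differed between CKO 4OHT and CKO EtOH by -0.48 (Il20, dim) to 0.49 (Wdr36, beside Tslp). Against control 4OHT they ran from -0.63 (Il20) to 0.33 (Wdr36). Beside Lif, the phosphatase gene Mtmr3 differed by 0.23 and 0.20 and Tbc1d10a by -0.10 and -0.47. Beside Cxcl14, the histone variant gene Macroh2a1 differed by 0.05 and 0.14.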

How the data were processed

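Affymetrix 430A mouse arrays were hybridised with total RNA of 4 keratinocyte cultures, 1 array each. The authors deposited 1 intensity per probe set on a linear scale, made with RMA per the submitters' processing notes, with no version listed in the labels used here. RMA, as usually run, corrects background, summarises probes and pulls arrays to 1 distribution, so a shift of most transcripts would be lost, and small intensities have compressed differences. Log2 was taken with no pseudocount (Python 3.11.15, numpy 2.4.6, pandas 2.3.3). Gene names came from the platform annotation, where 20380 probe sets named 1 gene, 691 several and 1555 were unlisted. The probe set of highest mean stood for a gene, and a gene was measured when its highest value reached the table's median. The threshold was 2-fold, with no test and no p-value, because each group had 1 array. The members, 6 lists of pathway genes and 6 of cell markers were chosen with earlier results of these data known. Named genes were the members, Prdm1, list genes past 2-fold or the 2 brightest of a list without any, and the 5 nearest profiles per member; other list genes, such as Clcf1, Il10, Il20, Il6, Il7r, Lifr and Ccl20, and the genome neighbours were named after their values were seen. Alternatives were quantile normalization, a pseudocount of 10, the mean of all probe sets, other level filters, a 1.5-fold threshold and, added after seeing the data, leaving out arrays.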

Additional observations from a re-analysis of the deposited data

Results flagged for a closer look

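Among the members, the measured list genes, Prdm1 and the genes nearest in profile, 21 had a difference between 4OHT and EtOH of opposite sign in CKO and in control cells, with at least 1 log2 unit between these drug effects. Over all measured genes, 2.75% had a difference of drug effects of at least 1 and 2.9% of at most -1. How many of those had opposite signs was not counted, so nothing is read from the 21. The difference of drug effects was not tested, since each group had 1 array. For the members it was 4.45 log2 for Il24 (4.44 in CKO cells, and under 0.01 in size in control cells), 1.93 for Tslp (1.26 in CKO cells and -0.67 in control cells) and -1.46 for Cxcl14 (-1.41 in CKO cells and 0.05 in control cells). The opposite sign of Il24 was lost with quantile normalization, where its drug effect in control cells was 0.06. The other 20 genes kept opposite signs under that setting.

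Of the list genes, Il6st stood at -1.63 (-1.5 in CKO cells and 0.13 in control cells) and Stat3 at -1.01 (-0.76 in CKO cells and 0.25 in control cells). Among keratinocyte markers, Krt1 stood at -4.09 (-3.23 in CKO cells and 0.86 in control cells), Krt10 at -1.15 (-0.40 in CKO cells and 0.75 in control cells) and Itgb4 at 1.11 (0.80 in CKO cells and -0.31 in control cells). Prdm1 stood at -2.74 (-1.40 in CKO cells and 1.34 in control cells), and with a pseudocount of 10 its difference in CKO cells was -0.72.

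The remaining 12 were genes chosen for a profile like a member's, so a like difference of drug effects comes with the choice. The difference of drug effects was 4.45 for Hmga2, 5.13 for Fst and 3.16 for Dusp6, near Il24. It was 1.89 for Itga3, 2.08 for Slc20a1, 1.94 for Cad, 1.67 for Mmp3 and 1.62 for Adam12, near Tslp, and 1.63 for Akap12, near Lif. Near Cxcl14 it was -1.43 for Cbr2, -1.31 for Casp4 and -1.33 for Fstl1.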

How the results depend on the processing

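Of 318 values set beside an alternative, 258 kept their side of the 2-fold limit (for a count, stayed within 1.5 times), and no value past 2-fold changed sign. Among the 258, 3 values under 2-fold did change sign: Csf1 against CKO EtOH was 0.06 and Clcf1 against control 4OHT 0.73 with the mean of all probe sets, and the drug effect on Il24 in control cells was 0.06 with quantile normalization. Quantile normalization and no level filter changed no call among the values they were run on. No paired analysis was possible because each group had 1 array. With a pseudocount of 10, differences of dim genes shrink: Tslp was 0.95 against CKO EtOH and Cxcl14 -0.99 against control 4OHT, so 0 members were lower in that comparison and 0 lay apart below in CKO 4OHT. Genes past 2-fold then numbered 169 against CKO EtOH, 176 against control 4OHT, 74 for the drug in control cells (73 higher and 1 lower), 2 between genotypes in ethanol and 261 for the difference of drug effects, with 78 apart on CKO 4OHT and 15 on control 4OHT, and the JAK and STAT list had 0 in both comparisons, the TSLP list 0 against CKO EtOH and the chemokine list 0 against control 4OHT. With the mean of all probe sets, which includes the dim one, Lif was 0.84 against CKO EtOH, 0.65 against control 4OHT and 0.61 for the difference of drug effects. Il6st was then -0.90 and -0.72, Osmr -0.90 and -0.76 and Socs3 -0.76 and -0.73, so the LIF family list and the JAK and STAT list had 0 genes past 2-fold in both comparisons, and 1 member lay apart above and 0 below in CKO 4OHT. Lif, Tslp and Csf1 do not reach a level filter at the 75th percentile. With that filter, 1 member was higher in each comparison of CKO 4OHT and in the difference of drug effects, and 1 lay apart above. The TSLP list then had 0 genes in both, and the counts of genes were 175, 171, 2 between genotypes in ethanol and 259, with 85 apart on CKO 4OHT. With 1.5-fold as the limit, the gene counts came to 831, 947 (496 higher and 451 lower), 587 (295 higher and 292 lower), 100 (44 higher and 56 lower) and 1465, with 423 apart on CKO 4OHT, 2 on CKO EtOH, 83 on control 4OHT and 29 on control EtOH. The IL-20 list had 2 genes against CKO EtOH, the chemokine list 2 and 3, the JAK and STAT list 2 and 3, and 1 member, Tslp, was lower with the drug in control cells. Leaving out 1 of the other arrays gave 145 to 198 genes apart in CKO 4OHT, 2 to 3 members above (Tslp joined without control EtOH) and 1 below. The arrays carry no detection calls, so signal over background limits the dim values, above all the second Lif and the _x_at Csf1 probe set.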
